A study of Drosophila melanogaster with 3 samples.

Results

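Pooled chromatin immunoprecipitation and sequencing (ChIP-seq) of GFP-tagged Cycle in fly prepupae gave a list of 29484 peaks. Of these, 264 had their summit in the pericentric ends of 4 chromosome arms. The authors deposited this pooled list as peaks and background, the input for a reproducibility threshold. An entry therefore need not be a site of Cycle binding, and 231 of the 264 were below that threshold. The peaks were chosen by position alone. A peak was included when its summit lay beyond 22.1 Mb on 2L, beyond 22.95 Mb on 3L, below 4.5 Mb on 3R or beyond 22.4 Mb on X of the dm6 assembly, and these stretches are called the windows here. The windows held 54 peaks on 2L, 53 on 3L, 86 on 3R and 71 on X. They were set against the 24026 pooled peaks on the rest of the same 4 arms.

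All samples were whole organisms of 1 transgenic Drosophila melanogaster line, cyc-GFP, in which GFP is joined to the C terminus of cyc. Animals of both sexes were pooled at the white prepupa stage, their age is given as unknown, and the chromatin was sonicated and precipitated with an antibody against GFP. The 3 samples are biological replicates of this 1 group, from separate biosamples of 1 line per the labels, so no treatment or genotype was compared. The labels name no promoter for the fusion, and a whole animal averages over all of its tissues.

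Pericentric heterochromatin is the compact, late-replicating chromatin on either side of a centromere. In flies it consists largely of satellite DNA and remnants of transposons, it is marked by methylated histone H3 lysine 9 and Heterochromatin Protein 1, and it silences many genes that are moved into it. It also holds essential genes that need this setting for their normal expression. Cycle is a bHLH-PAS protein that pairs with Clock and binds the E-box CACGTG in the promoters of circadian genes.

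The sequences of a few peaks show what kinds of DNA carried the signal. They were read from the plus strand of the dm6 (Release 6) reference, and bases in annotated untranslated regions were left out. The first pair comes from the 2 strongest peaks, at chr3R:4395276-4395376 and chr3R:4214206-4214306, and holds none of the 9 words searched. The next pair comes from the 2 promoters with thresholded peaks that lay deepest in a window, those of RpL15 at chr3L:27267178-27267254 and vtd at chr3L:27136396-27136496. The l(3)80Fg stretch, chr3L:26012449-26012549, is the thresholded peak with the most repeated sequence, and its capitals mark a run of A. The aux stretch, chr3R:4220897-4220985, has TATCGATA in capitals, a word bound by the insulator and promoter factors DREF and BEAF-32 in flies.
CG34112: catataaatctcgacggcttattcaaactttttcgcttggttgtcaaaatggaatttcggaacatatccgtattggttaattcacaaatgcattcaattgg
CG14636: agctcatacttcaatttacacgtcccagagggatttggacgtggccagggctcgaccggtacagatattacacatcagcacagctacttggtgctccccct
RpL15: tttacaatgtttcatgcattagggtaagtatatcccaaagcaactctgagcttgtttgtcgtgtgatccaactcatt
vtd: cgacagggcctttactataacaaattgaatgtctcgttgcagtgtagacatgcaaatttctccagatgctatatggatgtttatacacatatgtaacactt
l(3)80Fg: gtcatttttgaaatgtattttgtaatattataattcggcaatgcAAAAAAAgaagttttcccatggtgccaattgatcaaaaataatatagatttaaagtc
aux: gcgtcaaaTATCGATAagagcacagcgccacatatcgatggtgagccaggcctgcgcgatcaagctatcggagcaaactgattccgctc
The E-box CACGTG, in capitals, is shown for the 4 peaks in which it lay outside untranslated regions. The first pair is thresholded, at chr3R:4478362-4478415 and chr3R:4229375-4229428, and the last pair is below the threshold, at chr3L:23100363-23100416 and chrX:22578406-22578459. Each is named by the gene with the nearest start, which for the intergenic CG17601 peak lay 31403 bp away.
CG31523: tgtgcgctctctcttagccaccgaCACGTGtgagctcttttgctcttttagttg
DhpD: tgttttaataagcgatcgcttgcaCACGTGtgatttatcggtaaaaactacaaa
CkIIalpha: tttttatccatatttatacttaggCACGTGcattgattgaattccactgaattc
CG17601: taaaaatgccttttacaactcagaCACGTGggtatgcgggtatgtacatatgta

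Taken as a whole, the reference sequence of the windows was that of repeat-rich, gene-poor DNA. Of their 12.1 Mb of known bases, 58.7% began a 31-base word that occurs more than 1 time in the genome, against 5.58% in the 94.96 Mb of the rest of the arms. Soft-masked repeats covered 40.1% and 17.5%. Protein-coding genes with a start numbered 170 in the windows and 10843 outside, which is 14.1 and 114 genes per Mb. These averages hide an uneven spread. On 3R most genes of the window lay in its outer 500 kb. That stretch alone held 74 of the 264 pooled window peaks and 12 of the 33 that passed the threshold. No chromatin mark was measured in these samples. Summed over the arms, the share of repeated words changed little at the boundaries. It was 26.0% in the last 500 kb outside them and 28.7% in the first 500 kb inside. Larger differences lay farther off, with 4.56% at 1500 to 1000 kb outside, 25.6% at 1000 to 500 kb outside and 55.0% at 500 to 1000 kb inside. The first pooled summit inside a boundary lay at 5.28 kb on 2L, 2.28 kb on 3L, 15.2 kb on 3R and 43.6 kb on X, with signals of 25.8, 31.96, 42.1 and 28.1. The last summit outside lay at 43.4, 9.36, 24.6 and 766 kb from it, with signals of 31.6, 26.3, 38.7 and 42.0. None of these 8 neighbours, nearest to CG15219, CG32461, Fip1, CG14621, CG34173, Mes2, Mur82C and DIP1, was in the thresholded list.

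Replicate 1 stood apart from the others in the windows. Its own peak list held 554 window peaks, against 235 in replicate 2 and 311 in replicate 3. The lists were of nearly equal length, which does not show equal depth or quality. The excess of replicate 1 was mostly on 3L, with 238 peaks against 26 and 49. A repeated word lay within 100 bp of the summit in 32.3% of the window peaks of replicate 1 (179 peaks), 8.94% of replicate 2 (21 peaks) and 14.5% of replicate 3 (45 peaks). Outside the windows this share was 1.59 to 1.79% in all 3 lists. The list of replicate 1 also had 74.2% of its window peaks matched by neither other list, against 27.2% and 34.4%. For peaks outside the windows this unmatched share was 45.2% in replicate 1, against 21.8% and 22.3%, so replicate 1 was the highest there too. On the whole X replicate 1 held 3569 peaks, where the other lists held 6621 and 6528. What these differences come from was not tested, and the values of each replicate are given below, with means over replicates 2 and 3 where replicate 1 weighs on a result.

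**Figure D1:**
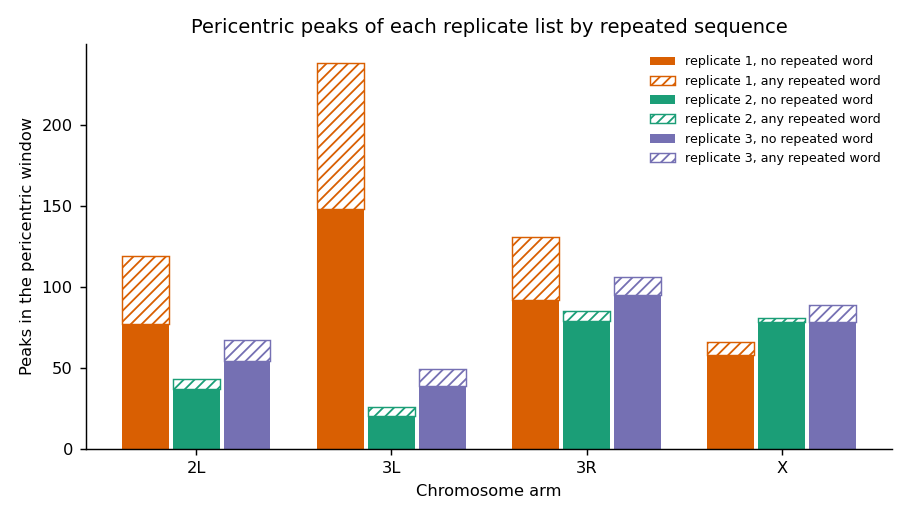
Number of pericentric peaks in each replicate list (y axis) by chromosome arm (x axis), split by whether any 31-base word within 100 bp of the summit is repeated in the genome. Replicate 1 has 238 window peaks on 3L, 90 of them with a repeated word, where replicates 2 and 3 have 26 and 49.

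Pooled peaks were sparse in the windows. The pooled list had 21.9 peaks per Mb of known bases there and 253 per Mb on the rest of the arms, a ratio of 0.0864. In the replicate lists the ratio of the same densities was 0.182, 0.0758 and 0.101, a mean of 0.119 ± 0.055 (SD, n = 3). The density was lower in the windows in 3 of 3 replicates (mean log2 ratio −3.16 ± 0.64, exact two-sided sign-flip permutation test, p = 0.25). With 3 replicates 0.25 is the smallest p that this test can give, and over the 7 such tests of the main settings, leaving aside those repeated under alternatives, the Benjamini-Hochberg adjusted value is 0.438. Per Mb of 31-base words that occur 1 time in the genome, the pooled density was 52.9 in the windows and 268 outside. Density also varied among the windows, from 10.5 pooled peaks per Mb on 3L and 19.2 on 3R to 38.2 on 2L and 62.3 on X. This order was the same as that of the share of bases lying within 1 kb of a gene start, which was 1.76%, 3.15%, 4.96% and 7.04%.

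Most of these peaks lay near the outer edge. The first 500 kb inside the boundaries held 181 of the 264 members, or 90.6 per Mb, where the last 500 kb outside held 151 per Mb. These values are summed over the arms, and X went the other way. Its last 500 kb outside held no pooled summit, and its first 500 kb inside held 55 members. The next 500 kb held 24.02 per Mb. Beyond 1 Mb the windows of 2L and 3L held 35 members, 6 on 2L and 29 on 3L, and those of 3R and X held none. The windows differ in length, with 1.41 Mb on 2L, 5.16 Mb on 3L, 4.5 Mb on 3R and 1.14 Mb on X. Little of the X window thus lies beyond 1 Mb. The first 500 kb and the next had 53.1 and 17.5 protein-coding genes per Mb, against 75.4 just outside. Replicate 1 alone had 8.45 to 56.2 peaks per Mb in each 500 kb bin beyond 1 Mb, while replicate 2 had 0 to 6.24 and replicate 3 had 0 to 12.5. The pooled list had 0 to 9 peaks in each of these bins. The deepest member lay 5063 kb into the 3L window, 123 bp from the start of l(3)80Fj, with a signal of 85.7. On the other arms the deepest members lay 1233 kb into 2L, 913 kb into 3R and 706 kb into X. Those on 3R and X were 112 bp from the start of Parp1 and 125 bp from that of ATbp. The 2L member was intergenic, 19498 bp from the nearest start, that of Tim23. It had a signal of 30.3 and a match in replicate 1 alone.

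**Figure D2:**
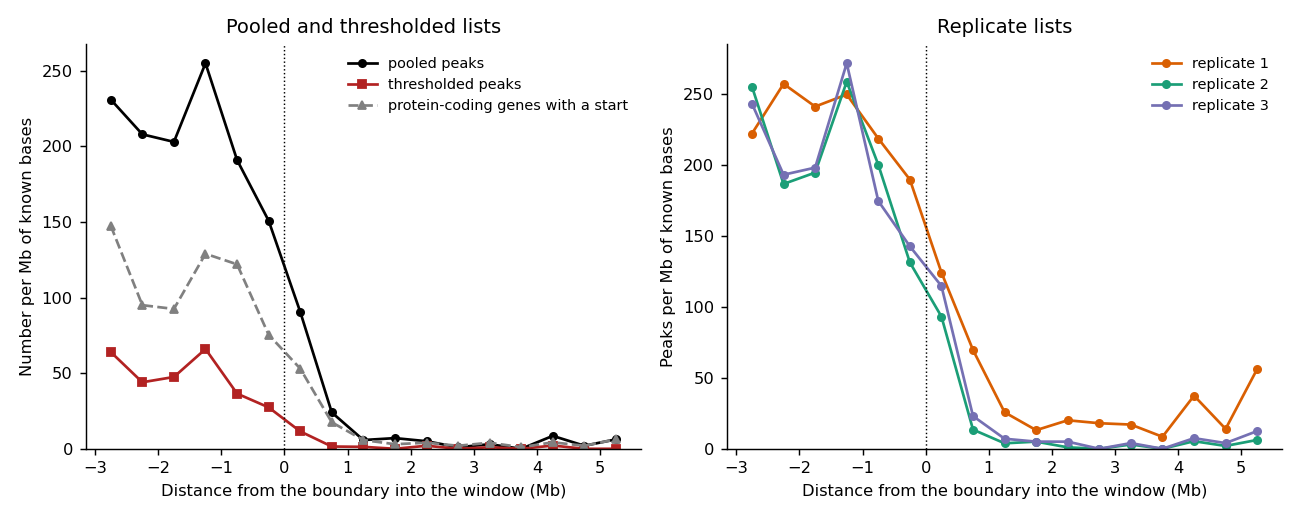
Number of peaks and of protein-coding genes with a start per Mb of known bases (y axes) in 500 kb bins by distance from the window boundary (x axis, Mb, positive toward the centromere), summed over the arms that reach each bin. Pooled peaks fall from 151 per Mb just outside the boundary to 90.6 and 24.02 per Mb inside it, although X has no pooled peak in the bin just outside. Replicate 1 stays above replicates 2 and 3 in every bin beyond 1 Mb.

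Few of the pericentric peaks reached the thresholded list, the 7227 peaks with the highest signal that the authors kept by irreproducible discovery rate (IDR). Of the 264 members, 33 were in it, a share of 12.5% (95% exact interval 8.76 to 17.1%), against 24.6% of the pooled peaks on the rest of the arms and 24.5% of all pooled peaks. The 33 comprised 6 on 2L, 8 on 3L, 13 on 3R and 6 on X, or 11.1%, 15.1%, 15.1% and 8.45% of the members of each arm. Among window peaks with no repeated word the share was 13.7% (31 of 227), against 24.8% outside. Within 1 kb of a start it was 18.4% (26 of 141) against 33.3%, and farther from starts 5.69% (7 of 123) against 20.1%. Taking the 7227 strongest peaks of each replicate list instead, 9.75%, 14.0% and 9.003% of its window peaks were among them, against 24.4%, 24.2% and 24.5% of the peaks outside. The difference was −13.4 ± 2.86 percentage points (SD, n = 3, lower in 3 of 3 replicates, exact two-sided sign-flip permutation test, p = 0.25). Without replicate 1 the mean difference was −12.9 percentage points.

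Peak signal is the authors' value for each peak against their control. Its scale is not stated, so ratios and log2 differences of signal are in the units of that value and need not be ratios of reads. It had a median of 42.3 in the windows and 49.9 outside in the pooled list. In the replicate lists the median log2 signal of the windows was lower by −0.26, −0.29 and −0.37, a mean of −0.31 ± 0.058 (n = 3, exact two-sided sign-flip permutation test, p = 0.25). In the pooled list the gap was wider at the upper quartile, 79.1 in the windows and 109 outside, than at the lower, 30.7 and 32.1. Thresholded peaks had a median of 153 in the windows and 212 outside, and pooled peaks below the threshold had 38.9 and 39.1. The threshold caps the signal of the latter in both groups, so their medians had little room to differ. The highest signal was 845 in the windows and 5705 outside. To compare replicates, the signal of the replicate peak that overlaps a thresholded peak was divided by the median over all matched thresholded peaks of that replicate, and this is called relative signal. The median relative signal of the thresholded pericentric peaks was 0.832, 0.780 and 0.659 in replicates 1, 2 and 3, where that of thresholded peaks outside was 0.994, 0.998 and 1.01. The log2 difference was −0.41 ± 0.18 (n = 3, lower in 3 of 3 replicates, exact two-sided sign-flip permutation test, p = 0.25), and −0.48 without replicate 1.

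Support among replicates was also lower. A peak in all 3 replicate lists overlapped 84 of the 264 members by at least 1 bp, or 31.8% (95% exact interval 26.2 to 37.8%), against 45.3% outside and 45.0% of all pooled peaks. Another 104 members were matched in 2 lists, 69 in 1 list and 7 in none. By replicate, 65.2%, 58.7% and 76.5% of the members were matched, and outside 63.3%, 76.5% and 79.1%. The deficit depended on the replicates counted. Replicates 2 and 3 both matched 50.4% of the members and 66.7% of the peaks outside, replicates 1 and 2 matched 36.4% and 50.1%, and replicates 1 and 3 matched 48.1% and 50.9%. Of the 33 thresholded members, 26 were matched in all 3 lists (78.8%, 95% exact interval 61.1 to 91.0%, against 90.5% outside). Of the others, 6 were matched in 2 lists and 1, at MED21, a Mediator subunit gene, in replicate 1 alone. For 14 of the 33 the match was among the 7227 strongest peaks of every replicate (42.4%, against 65.2% outside). Of the 231 members below the threshold, 58 were matched in all 3 lists (25.1%, 19.7 to 31.2%, against 30.5% outside). Taken separately, the intervals of thresholded members and of those below the threshold each include the value outside.

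Gene starts carried most of these peaks. A summit within 1 kb of a protein-coding start was found for 141 of the 264 members, or 53.4% (95% exact interval 47.2 to 59.5%), against 34.5% outside. Introns held 21.97% of the members against 37.2%, and intergenic sequence 20.5% against 24.1%. Among thresholded peaks the share near starts was 26 of 33, or 78.8% (61.1 to 91.0%), against 46.6% outside. Within 100 bp of a start lay 48.5% of the thresholded members (16 peaks) and 15.4% of thresholded peaks outside. The replicates differed here. In replicate 1, 22.7% of window peaks were near a start against 24.7% outside, in replicate 2 it was 62.1% against 39.0%, and in replicate 3 it was 53.7% against 37.3%. The mean difference was 12.5 ± 13.0 percentage points (n = 3, higher in 2 of 3 replicates, exact two-sided sign-flip permutation test, p = 0.5), which is within the spread between replicates. It was 19.8 points without replicate 1. With peaks in repeated sequence left out it was 16.3 ± 10.1 points and positive in 3 of 3 replicates, at 4.89, 24.1 and 19.9 (exact two-sided sign-flip permutation test, p = 0.25).

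**Figure D3:**
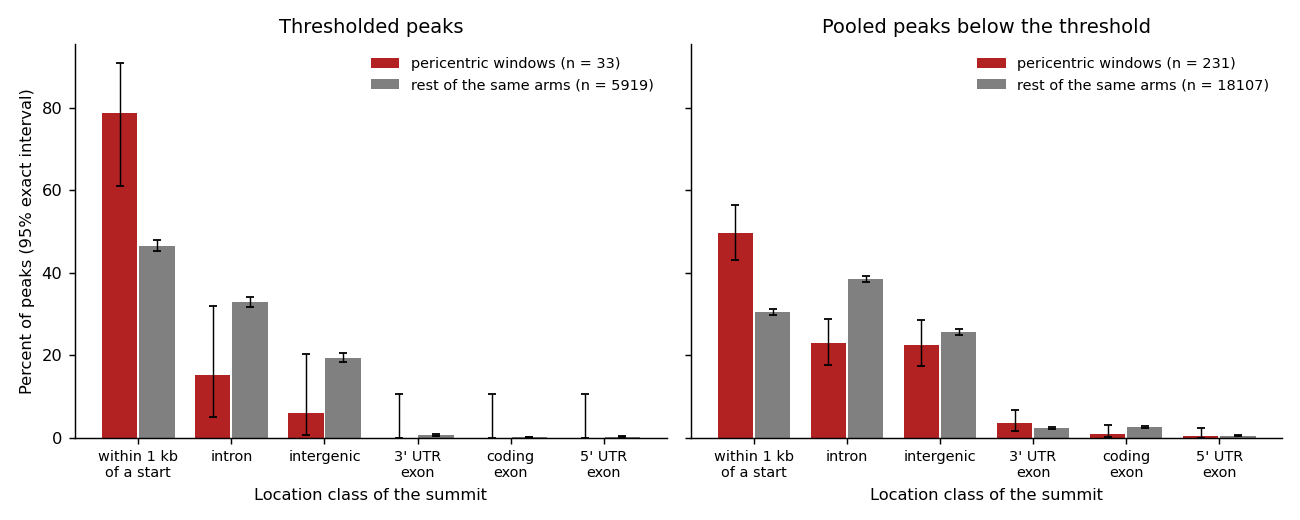
Percent of thresholded peaks (left) and of pooled peaks below the threshold (right) in each exclusive location class of the summit, for the pericentric windows and the rest of the same arms, with exact 95% intervals that cover counting error only. Of the thresholded window peaks 78.8% lie within 1 kb of a start, against 46.6% outside.

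Set against the number of genes, peaks at starts were about as frequent in the windows as outside, and peaks away from starts were rarer per Mb. In the pooled list there were 0.829 start peaks per protein-coding gene in the windows and 0.764 outside. Peaks farther than 1 kb from a start numbered 10.2 per Mb in the windows and 166 per Mb outside, and for thresholded peaks 0.580 and 33.3 per Mb. With both kinds taken per Mb, the ratio of windows to outside was 0.134 for start peaks and 0.0614 for the others. Known bases include those that begin a repeated word, 58.7% in the windows and 5.58% outside. Peaks away from starts were not counted per Mb of non-repeated words. In the replicate lists the start peaks per gene were 0.741, 0.859 and 0.982 in the windows and 0.547, 0.876 and 0.834 outside, a ratio of 1.17 ± 0.19 (SD, n = 3) and of 1.08 without replicate 1. Their peaks away from starts numbered 35.4, 7.37 and 11.9 per Mb in the windows and 190 per Mb, 157 per Mb and 160 per Mb outside. The ratio was 0.187, 0.0471 and 0.0743, below 1 in 3 of 3 replicates and highest in replicate 1, with a mean of 0.0607 without it. A pooled summit lay within 1 kb of a start of 109 of the 170 window genes, or 64.1% (95% exact interval 56.4 to 71.3%), against 55.9% of the genes outside. In the replicate lists the share was 56.5%, 58.2% and 66.5% in the windows and 46.0%, 59.0% and 58.7% outside, a difference of 5.84 ± 5.86 points (n = 3, exact two-sided sign-flip permutation test, p = 0.5) and of 3.52 points without replicate 1. Thresholded summits lay at 33 of the 170 window genes, or 19.4% (13.8 to 26.2%), against 29.2% outside. With the 7227 strongest peaks of each replicate the share was 29.4%, 17.6% and 15.3% in the windows and 23.2%, 31.02% and 30.6% outside. Replicate 1 thus had the opposite direction to the other two, and the mean difference of −7.48 ± 11.9 points was within their spread (exact two-sided sign-flip permutation test, p = 0.5). It was −14.3 points without replicate 1. Window genes were longer than the others, with median lengths of 4.61 and 2.16 kb, and those without any pooled peak near a start had a median of 2.64 kb.

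**Figure D4:**
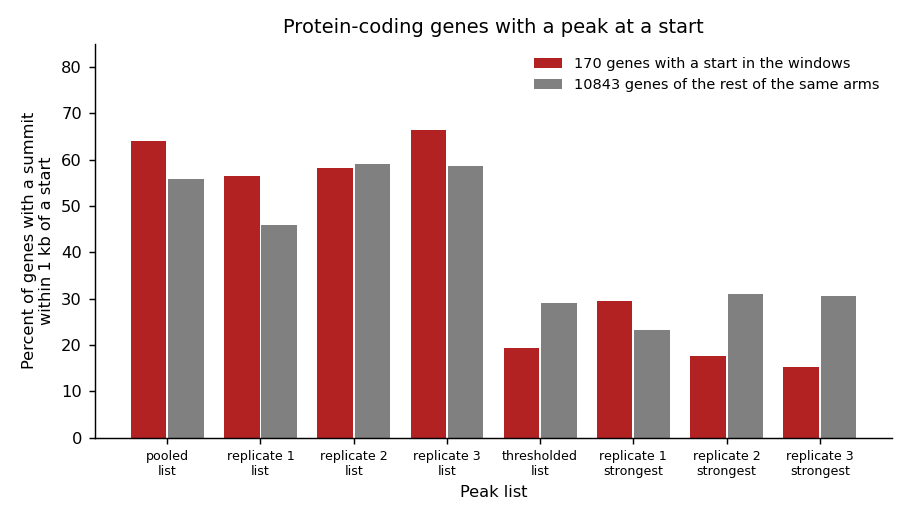
Percent of protein-coding genes with a summit within 1 kb of a start (y axis) for the 170 genes of the windows and the 10843 genes of the rest of the arms, in the pooled, thresholded and replicate lists and in the strongest 7227 peaks of each replicate (x axis). With the strongest peaks, replicate 1 is higher in the windows (29.4 against 23.2%) and replicates 2 and 3 are lower.

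The 4 strongest members all lay in the outer 300 kb of the 3R window. The strongest was an intergenic peak at chr3R:4395149-4395480, 1067 bp from the start of CG34112, with a pooled signal of 845 and rank 392 of all pooled peaks. Its relative signal was 5.03, 3.77 and 3.12 in replicates 1, 2 and 3, a mean of 3.97 ± 0.98 (n = 3). Each value was above 3, on the scale where the median thresholded peak is 1. The second, at chr3R:4214121-4214395 in introns of both CG14636 and aux, had relative signals of 4.58, 2.73 and 2.48. aux encodes auxilin, a cofactor that removes clathrin coats from vesicles. The third, at chr3R:4478176-4478475 in CG31523, 518 bp from its start, had 3.42, 2.66 and 2.44, and the fourth, 88 bp from the start of DhpD, had 1.54, 2.41 and 2.18. DhpD encodes a dihydropterin deaminase of pteridine metabolism. In the first 3 of these peaks replicate 1 was the highest, and at DhpD it was the lowest. Next on 3R came CG9776 and CG14645, which share a peak (1.59, 1.29 and 1.17), and Lipt2 and CG14650, which share another (1.14 and 0.948 in replicates 2 and 3 and no match in replicate 1). Lipt2 is named for lipoyl transferases, which attach lipoate to mitochondrial enzymes. A further peak 549 bp from the start of CG14636 had 1.66, 1.00 and 0.686. Those at lost, CG34305 and CG9853 had mean relative signals of 0.883 ± 0.408, 0.779 ± 0.099 and 0.779 ± 0.281.

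**Figure D5:**
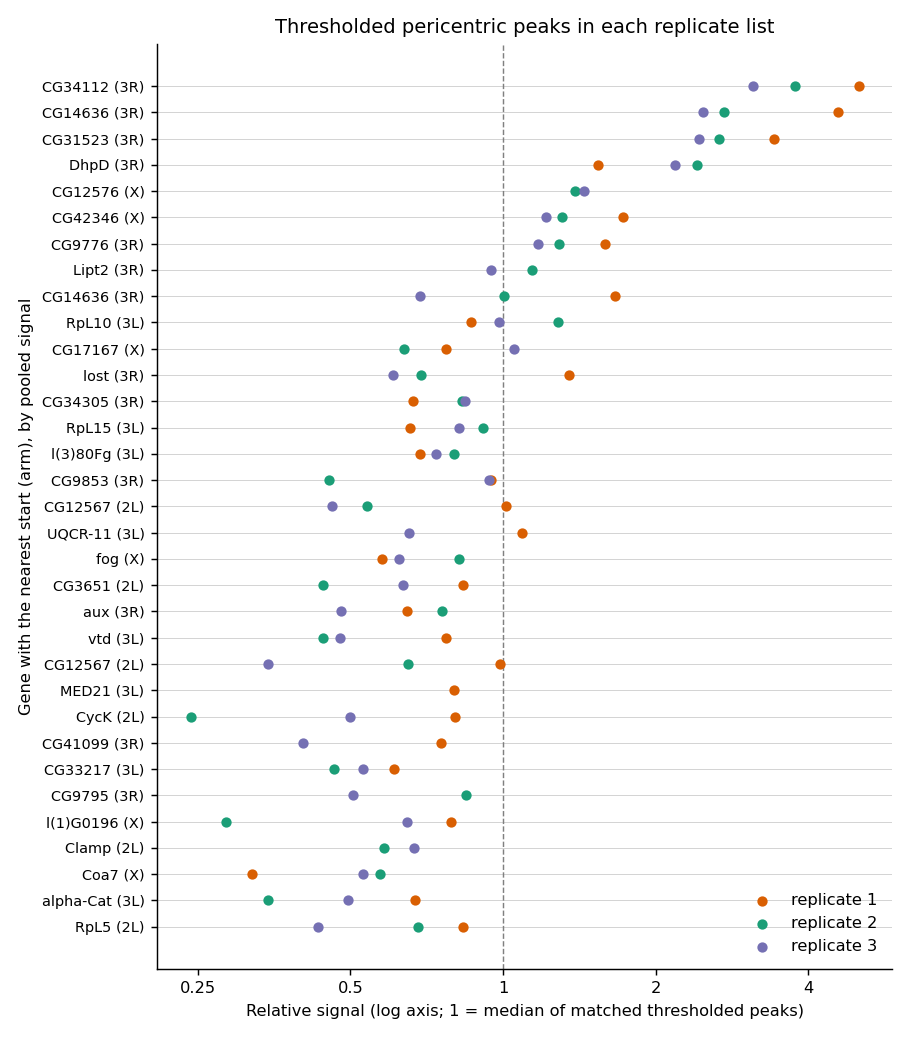
Relative signal of the 33 thresholded pericentric peaks in each replicate list (x axis, log scale, where 1 is the median of matched thresholded peaks of that replicate), with peaks in order of pooled signal and named by the nearest start (y axis). A point is missing where the replicate list had no overlapping peak. The peak near CG34112 is at 3.12 to 5.03 in all 3 replicates, and most others lie below 1.

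On X the strongest member was an intronic peak of CG12576 with a pooled signal of 309. It had relative signals of 1.39 and 1.44 in replicates 2 and 3 and no match in replicate 1. It was followed by a peak at chrX:22833628-22833804 inside both CG42346 and fog, with 1.73, 1.31 and 1.22, and by one 302 bp from the start of CG17167, with 0.771, 0.639 and 1.05. fog encodes a secreted ligand that drives apical constriction when epithelia fold. A second intronic peak in fog, 8613 bp from its start, had 0.576, 0.820 and 0.624, and the peak at the fog start itself, with a pooled signal of 74.1, was below the threshold. The gene body of fog held 10 pooled summits, 2 of them thresholded. On 2L the 3 strongest members had pooled signals of 153, 141 and 133. A peak 32 bp from the start of CG12567 had relative signals of 1.01, 0.539 and 0.460. One 65 bp from the start of CG3651 had 0.833, 0.442 and 0.635, and another 1686 bp from the CG12567 start had 0.986, 0.649 and 0.345. At all 3 of these 2L peaks replicate 1 was the highest.

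On 3L the strongest members lay at ribosomal protein genes, which encode structural proteins of the cytosolic ribosome. RpL10, 146 kb into the window, had a summit 46 bp from its start with relative signals of 0.866, 1.28 and 0.980, a mean of 1.04 ± 0.22. RpL15, 4317 kb into the window at chr3L:27267023-27267432, had a summit 27 bp from its start with 0.656, 0.913 and 0.820, a mean of 0.796 ± 0.130. This was the deepest thresholded peak of any window, and the replicates differed by less than 1.5 times. At RpL5 on 2L, with a summit 11 bp from a start, the values were 0.832, 0.679 and 0.433. The third 3L peak, in an intron of l(3)80Fg at chr3L:26012294-26012703, had 0.686, 0.80 and 0.738. Of the 31-base words around its summit 38.0% were repeated, and how reads from such words were placed is not stated. UQCR-11, a gene for a subunit of mitochondrial complex III, had 1.09 and 0.652 in replicates 1 and 3 and no match in replicate 2.

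A list of 22 genes studied as heterochromatic genes, chosen with earlier results known, was followed next. Of these, 21 had a start in the windows and Chi did not. A pooled summit lay within 1 kb of a start for 15 of the 21 and a thresholded one for 3, RpL5, RpL15 and vtd. Over all window genes these shares were 64.1% and 19.4%. vtd, which encodes the Rad21 subunit of cohesin, had relative signals of 0.773, 0.441 and 0.476 at its start. Its peak lies 79 bp upstream. The gene lt encodes a subunit of the HOPS complex for delivery to lysosomes, and its start peak had a pooled signal of 108, just under the lowest thresholded value of 110. It was matched in replicates 1 and 3 (0.763 and 0.587) but not in replicate 2. The same 2 replicates alone matched the peaks of Dbp80, an RNA helicase gene (0.596 and 0.556), and Parp1, the poly(ADP-ribose) polymerase gene (0.601 and 0.502). They alone also matched cta (0.687 and 0.255), the G protein alpha subunit that acts downstream of Fog, and Cht10, a chitinase gene (0.392 and 0.188). Set1, a histone H3 lysine 4 methyltransferase gene, had 0.285 and 0.198 and AGO3, an Argonaute gene of the piRNA pathway, 0.176 and 0.143, again in replicates 1 and 3. su(f), which acts in messenger RNA 3′ end formation, had 0.677, 0.321 and 0.312, and the start of fog had 0.507, 0.308 and 0.297. The shared start of stnA and stnB, which encode synaptic vesicle proteins, had 0.330 and 0.281 in replicates 2 and 3. CkIIalpha, the catalytic subunit of a kinase that phosphorylates clock proteins in flies, had 0.216 and 0.1998 in replicates 1 and 2. Snap25, nvd, eIF4B, Myo81F, Pzl and Dsk had no pooled summit within 1 kb of a start. Of these nvd encodes the enzyme of the first step of ecdysone synthesis, and Myo81F, spanning 1966 kb, was the longest gene of the windows and held no pooled summit.

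Repeated sequence was more common around the members than elsewhere, though far less than in the windows as a whole. Any repeated 31-base word lay within 100 bp of the summit in 37 of the 264 members, or 14.0% (95% exact interval 10.1 to 18.8%), against 1.80% outside. Of the 33 thresholded members 2 had one, or 6.06% (0.743 to 20.2%), against 0.946% of thresholded peaks outside. The share was 6.38% at starts, 19.0% in introns and 25.9% in intergenic members. In 1 intergenic member, 228801 bp from the nearest start, that of eIF4B, 82.5% of the words were repeated. The median GC content within 100 bp of the summit was 35.3% in the members and 36.3% outside.

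The E-box CACGTG, looked for on either strand up to 100 bp from each summit, was found in 6 of the 264 members, or 2.27% (0.839 to 4.88%), against 1.91% outside. Among the 33 thresholded members 4 had it, or 12.1% (3.40 to 28.2%), against 1.57% of thresholded peaks outside. Up to 200 bp from the summit it was again 4 of 33, against 4.36% outside. These 4 were CG31523, DhpD, CycK and RpL5. The other 2 members are named by the nearest start, that of CkIIalpha at 268 bp and that of CG17601 at 31403 bp. The latter member was intergenic. CycK encodes a cyclin that acts in transcription. In the sequences shown above the E-box lay 58 bp above the summit at CG31523 and 76 bp above it at DhpD, and at −94 and −67 bp, toward lower coordinates, at CkIIalpha and CG17601. At CycK and RpL5 it lay in an annotated untranslated region. TATCGATA was in 4.17% of the members against 2.07% outside, among them aux, vtd and CG9795. CAGCTG was in 1.89% (0.618 to 4.36%) against 8.02%, GTGCAC in 4.17% against 6.543%, GGTCACAC in 1.14% against 1.49%, GAGAGA in 9.47% against 9.01% and AAAAAA in 51.5% against 45.0%. Of 2 satellite repeats, each searched as a pair of units in a row, AATAT was in 0.758% against 0.820%. AAGAG was in 0 of 264 members, which allows a share of up to 1.14%, against 0.0583% outside. CACGTG and GTGCAC can overlap each other, and a match describes these letters alone.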

How the data were processed

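ChIP-seq peak lists were analysed for 3 biological replicates of cyc-GFP white prepupae. The lists, in narrowPeak layout, are those the authors deposited. Each replicate has its own list, a pooled list was made from all 3, and an IDR-thresholded list was derived from these, per the texts deposited with them. The pooled list is named as peaks and background for input to IDR, so it also holds background. Signals are the authors' deposited values against a control alignment that was not analysed here. They were compared only within a list. The −log10 q value the authors deposited had 1 value throughout the thresholded list and was not used. The summit is the offset score deposited with each peak. Which aligner and peak caller made them is not stated by the labels or texts used. Without read counts depth is unknown. Exact 95% intervals (Clopper-Pearson) and the 3-count limit for a count of 0 cover counting error only.

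Coordinates are on dm6, and dm3 lists gave counts alone. Gene models came from Ensembl release 115 (build 6.54) and sequence from the RefSeq Release 6 genome. Summits were classed, in this order, as within 1 kb of a protein-coding start, in an exon (5′ UTR, coding, then 3′ UTR), in an intron or intergenic. Words of 31 bases were counted on both strands of the whole genome. A pooled peak matched a replicate peak that overlapped it by at least 1 bp, and the one with the nearest summit gave its value. Lists were compared over replicates by exact two-sided sign-flip permutation, with Benjamini-Hochberg adjustment over the 7 tests of the main settings, of which the 4 at 0.25 become 0.438 and the others 0.5. Peaks and genes are not independent, with 29 neighbouring pairs of members within 500 bp, so shares are descriptions without a test. Genes named were those nearest to the 20 strongest members, to the 3 strongest of each arm and to the boundaries, and the list of heterochromatic genes. A few others were named after their values were seen. 3 list names were matched by synonym (AGO3, Parp1 and Cht10). The windows, members, words and lists were chosen with earlier results of these data known. Scripts were tested on simulated data. Alternatives moved the boundaries 500 kb inward, left out repeated sequence or a replicate, and varied the overlap, the distance to starts, the window, the word length and the stringency. Computation used Python 3.11.15, numpy 2.4.6, pandas 2.3.3, scipy 1.17.1 and matplotlib 3.10.9.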

Additional observations from a re-analysis of the deposited data

Results flagged for a closer look

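Lists on the older dm3 assembly entered no comparison in the report. In the thresholded dm3 list, 7 of 7189 peaks lay on sequences that dm3 names as heterochromatin of the same arms, 2 for 2L, 4 for 3L, 0 for 3R and 1 for X, with a highest signal of 203. The pooled dm3 list had 38 such peaks. The replicate lists had 156, 34 and 49, of which 86, 12 and 17 were for 3L. No control peak list was used to set a background, so these are counts without a test.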

How the results depend on the processing

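Of 47 recomputed values, 15 moved and 32 did not, judged by direction where there was a test, by 1.5 times for gene counts and by the counting interval otherwise. With boundaries 500 kb inward, the pooled density ratio fell from 0.0864 to 0.033, its mean over replicate lists from 0.119 to 0.057 and the share matched in all 3 replicates from 31.8 to 25.3%. Per Mb of non-repeated words, chosen after seeing the data, the ratio was 0.198. Among the 3613 strongest thresholded peaks were 3.79% of members and 12.3% of the rest. Requiring 50% overlap gave 25% matched (rest 36.5%), and leaving out 1 replicate gave 36.4 to 50.4% (rest 50.1 to 66.7%), with the smallest gap, 48.1 against 50.9%, without replicate 2. The share near starts was 43.9% at 500 bp (rest 25.5%), 67.8% at 2 kb (46.6%) and 72.7% with starts of all genes (40.8%). Words of 24 bases put repeated sequence at 23.9% of members (7.80%). With 200 bp on each side of the summit GTGCAC rose to 11.0% (12.0%), GAGAGA to 18.6% (18.2%), CAGCTG to 9.47% (17.0%), AAAAAA to 75% (66.0%), CACGTG to 4.55% (4.45%), GGTCACAC to 1.89% (2.63%) and TATCGATA to 6.44% (3.18%), as a wider window holds more words. The AATAT pair, below the rest before, was then above it (1.52 against 1.47%). Leaving out 1 replicate gave density ratios of 0.088 to 0.141, differences in the strongest share of −15.1 to −12.4 points, in log2 signal of −0.33 to −0.27 and in the share near starts of 7.23 to 19.8 points. No paired analysis was possible because there is 1 group of samples. Windows and rest were compared within each replicate. With 3 replicates no test here could pass 0.05, depth is unknown, and peaks in repeated sequence depend on how reads with several matches were placed, which is not given in the sources used here.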
